A study of Mus musculus with 4 samples.

Results

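Bands qD1 and qD2 of mouse chromosome 7 hold 7 of the 214 piRNA loci that the deposited table counts, and 6 of them, described here, lie in 3 divergent pairs. The members were taken by name, 7-qD2-24830, 7-qD2-11976, 7-qD1-9417, 7-qD1-16444, 7-qD1-654 and 7-qD1-19431, from a list drawn up with earlier results of these libraries known; the rule itself uses no measured value. The locus of these bands that the list leaves out, 7-qD2-40 (chr7:75418790-75431855), stood at 239, 136, 119 and 151.6 reads per 1000000 counted reads in wild type 1, wild type 2, knockdown 1 and knockdown 2, so its level in knockdown 1 was 87.4% of the lowest of the other libraries. Together they held 692545 reads of 25 to 31 nt on 65969 distinct sequences. The other 208 loci serve as the reference: 94 named by chromosome band and 114 named after a gene.

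Small RNA was sequenced from whole testis of mice at postnatal day 16 (P16), in 2 wild-type libraries and 2 libraries labelled Hsf5 knockdown. HSF5 is a member of the heat shock factor family of transcription factors that is made in meiotic male germ cells. The labels call each library a biological replicate and do not say how the Hsf5 allele was made, which strain was used or how many animals a library holds, and the table itself names the knockdown libraries KO. Messenger RNA was not measured, so the loss of Hsf5 could not be checked in these files. The libraries are called wild type 1, wild type 2, knockdown 1 and knockdown 2 below, and every list of 4 values keeps this order.

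PIWI-interacting RNAs (piRNAs) are small RNAs of germ cells that are cut from long single-stranded transcripts, mostly start with U and are carried by PIWI proteins. In the mouse testis MILI binds the shorter piRNAs and MIWI the longer ones, and MIWI is made from the pachytene stage of meiosis onwards. Pachytene piRNA loci are transcribed by RNA polymerase II under the transcription factor A-MYB (MYBL1), many of them as pairs that run away from each other from a shared promoter.

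All 6 loci formed such pairs on chromosome 7 (GRCm39). Locus 7-qD2-24830 (chr7:73423665-73466217, minus strand, 42553 bases) and locus 7-qD2-11976 (chr7:73466343-73488642, plus strand, 22300 bases) started 125 bases apart. The second pair was 7-qD1-9417 (chr7:69523958-69559331, minus strand, 35374 bases) with 7-qD1-16444 (chr7:69559512-69616107, plus strand, 56596 bases), and their starts lay 180 bases apart. The third was 7-qD1-654 (chr7:72747574-72755021, minus strand, 7448 bases) with 7-qD1-19431 (chr7:72755060-72796527, plus strand, 41468 bases), with 38 bases between the starts. Every read of these loci with 1 exact place in the genome fell inside the deposited interval, and 94.4% to 99.8% of them lay on the strand of the locus.

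The pairs differed in how much of the piRNA source is annotated as a gene (GENCODE M39). In the qD2 pair nearly all piRNAs came from long noncoding RNA genes: 80.6% of the sense reads of 7-qD2-24830 lay in introns of Gm10619 and 17.8% in its exons, and 99.2% of those of 7-qD2-11976 lay in exons of Gm21269. In the qD1 pairs most reads of 3 loci lay where no gene is annotated on the strand: 85.7% for 7-qD1-9417, 91.9% for 7-qD1-16444 and 95.9% for 7-qD1-19431. For 7-qD1-654 this share was 48.6%. Of the other reads of 7-qD1-654, Gm73809 held 20.5% in exons and 15.9% in introns.

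The most abundant piRNAs of the loci, 2 per locus by mean level over the 4 libraries, are shown to let their first bases and shared 5′ ends be compared. Each reads 5′ to 3′ with T for U, and the capital marks the first base. Every one has 1 exact place in the genome, given by the first and last base.
7-qD2-24830 a, chr7:73443216-73443245, minus strand: Ttcttagtcatttttctgagtcatgctctg
7-qD2-24830 b, chr7:73463792-73463821, minus strand: Cacagaatgtagacagagtactctgaggca
7-qD2-11976 a, chr7:73474742-73474770, plus strand: Tgtgaatttcaactgttggctccacaggg
7-qD2-11976 b, chr7:73469464-73469489, plus strand: Tatcaaacagatggtgcgctccgagc
7-qD1-9417 a, chr7:69553758-69553788, minus strand: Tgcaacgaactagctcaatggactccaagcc
7-qD1-9417 b, chr7:69535780-69535809, minus strand: Tttttcttcttaactgctgtaactgaaact
7-qD1-16444 a, chr7:69563525-69563550, plus strand: Tgaaaggaagtaggctgactgttttc
7-qD1-16444 b, chr7:69580408-69580434, plus strand: Taagaagatctgtgaacgacactgggc
7-qD1-654 a, chr7:72753986-72754015, minus strand: Taagtaaaggagactgtatggattaccttt
7-qD1-654 b, chr7:72753989-72754015, minus strand: Taagtaaaggagactgtatggattacc
7-qD1-19431 a, chr7:72766699-72766727, plus strand: Taatttcttggcaaactcttgagtgtgtg
7-qD1-19431 b, chr7:72791646-72791675, plus strand: Aagactgtaatatgttcatgctctttgaca

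The 2 printed piRNAs of 7-qD1-654 share a 5′ end and differ in where the 3′ end falls. The third piRNA of 7-qD1-16444 by level was likewise a longer form of sequence b from the same 5′ end:
7-qD1-16444 c, chr7:69580408-69580436, plus strand: Taagaagatctgtgaacgacactgggcac

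The data in brief: knockdown 1 held almost no piRNA from 5 of the 6 loci and a reduced but countable amount from 7-qD1-16444, while knockdown 2 held each locus at 107% to 150% of the wild-type mean. The groups overlapped at all 6 loci, and no locus differed between genotypes by any test. Levels are given in RPM: the reads of 25 to 31 nt of a locus, scaled to 1000000 counted reads in each library. Library totals ran from 9260452 to 11117460 reads, and 3 reads, the limit that a count of 0 allows, equal 0.270 to 0.324 RPM.

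**Figure D1:**
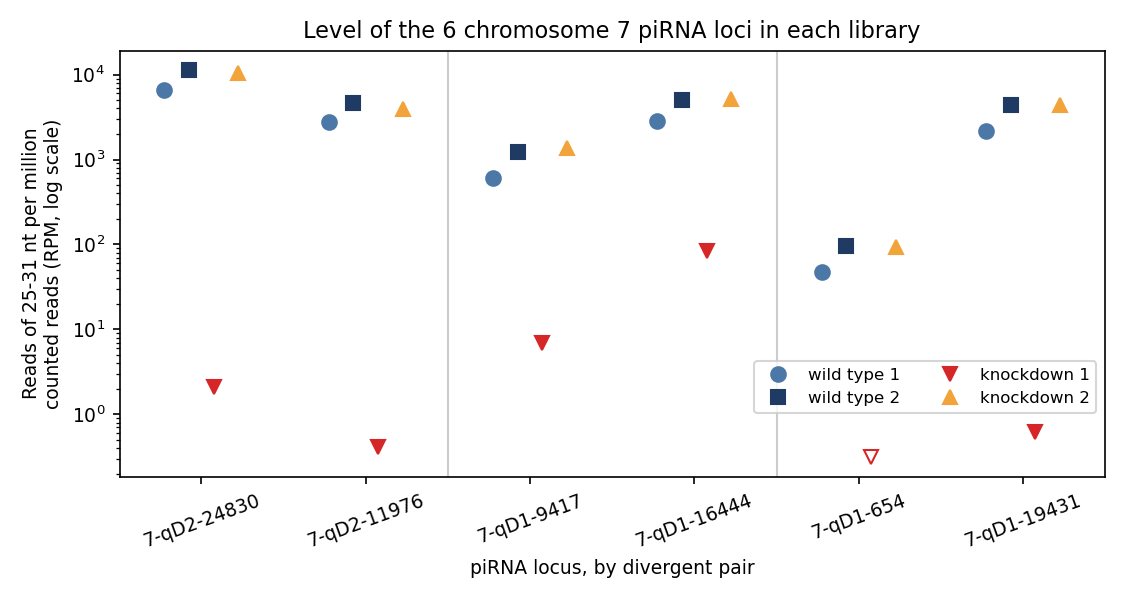
Level of each locus in each library, in RPM on a log axis (reads of 25 to 31 nt), with 1 point for each library. At each locus wild type 1, wild type 2 and knockdown 2 lie together and knockdown 1 lies below them, and the open triangle of 7-qD1-654 is the limit that 0 reads allow in knockdown 1 (0.312 RPM), not a measured level.

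The qD2 pair was the strongest, and knockdown 1 was far below the other libraries at both of its arms. Locus 7-qD2-24830 stood at 6629.8 RPM in wild type 1, 11313 in wild type 2, 2.08 in knockdown 1 and 10462 in knockdown 2. The value of knockdown 1 rested on 20 reads and was 3189-fold below the lowest of the other libraries (95% counting interval 2065 to 5221, exact Clopper-Pearson on the count of knockdown 1). Of these 20 reads 13 were sense and 7 antisense, and the fold and its interval include both. Its arm partner 7-qD2-11976 stood at 2759.6, 4691, 0.416 and 3987 RPM. There 4 reads remained in knockdown 1, 6637-fold below the lowest other library (2592 to 24358). Both arms were therefore low in 1 knockdown library and within the wild-type range in the other.

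The pair of 7-qD1-9417 and 7-qD1-16444 had more reads left in knockdown 1. Locus 7-qD1-16444 stood at 2852, 5039, 83.3 and 5130.2 RPM, with 801 reads in knockdown 1, 34.2-fold below the lowest other library (31.96 to 36.7). Its partner 7-qD1-9417 stood at 603, 1238, 6.96 and 1382 RPM. Knockdown 1 had 67 reads of it, 86.6-fold below the lowest other library (68.2 to 112). The intervals of these 2 folds do not meet, and they do not include the counting error of the wild-type library, which has 6707 and 31704 reads of these loci. Within knockdown 1, the 2 arms of this pair thus stood at different fractions of their level elsewhere.

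The third pair was nearly absent from knockdown 1. Locus 7-qD1-19431 stood at 2163, 4341, 0.624 and 4345 RPM, with 6 reads in knockdown 1, 3469-fold below the lowest other library (1594 to 9452). Its short partner 7-qD1-654, the weakest member, stood at 47.5, 95.4, 0 and 92.6 RPM. With no read in knockdown 1 it was at least 152-fold lower there than in the lowest other library, taking 3 counts in knockdown 1 as a one-sided limit, which is not the two-sided interval used for the other loci. Intervals and bounds cover counting error only, and the labels name no molecular identifiers.

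Set against genotype, these values gave no difference beyond the spread between libraries. The wild-type mean of 7-qD2-24830 was 8972 ± 3312 RPM (SD, n = 2) and its knockdown mean 5232 ± 7396 RPM (SD, n = 2). For its partner 7-qD2-11976 the means were 3725 ± 1366 and 1994 ± 2819 RPM (SD, n = 2 each). For 7-qD1-16444 they were 3945 ± 1546 and 2607 ± 3569 RPM, and for 7-qD1-9417 920.5 ± 449 and 694 ± 972 RPM (SD, n = 2 each). For 7-qD1-19431 they were 3252 ± 1540.0 and 2173 ± 3072 RPM, and for 7-qD1-654 71.4 ± 33.8 and 46.3 ± 65.5 RPM (SD, n = 2 each). At each locus the SD of the knockdown group was larger than its mean. An exact two-sided permutation test of the mean log2 level gave p = 0.667 for 7-qD2-24830, 7-qD2-11976 and 7-qD1-654 and p = 1 for the other 3 loci. With 2 libraries against 2 the smallest p this test can reach is 0.333. Fitted over all 214 loci with edgeR's quasi-likelihood test, the log2 differences of the members ran from -1.31 (SE 2.88) at 7-qD2-11976 to -0.78 (SE 1.93) at 7-qD1-9417, each with a Benjamini-Hochberg adjusted p of 0.99. Without knockdown 2, the same fit called all 6 members lower, at -4.53 for 7-qD1-16444 to -12.16 for 7-qD1-654 (adjusted p 9.4e-22 and 3.6e-05), as part of 63 called loci of 214; the lone library of its group is then assumed to vary like the wild type. Without knockdown 1 the members' fitted differences ran from -0.51 to 0.00022 with adjusted p of 0.998 to 0.9995. With all 4 libraries, none of the 214 loci was called in either direction by edgeR (0% higher and 0% lower), none had an unadjusted p under 0.05, and DESeq2 called none.

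The members' fitted log2 differences had a median of -0.98 and 0 of 6 were above 0, beside a median of 0.11 with 128 of 214 above 0 over all loci tested. That median moved to -0.05 with total reads as the library size and to -0.17 with mature miRNA reads, and each member stayed below it. The 2 wild-type libraries also differed, with each member 1.70 to 2.05 times higher in wild type 2 than in wild type 1. At 0 of the 6 members were the 2 knockdown values under the 2 wild-type values, as against 0.467% of all loci, and at 0 of 6 were they above, as against 2.34%.

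Against the rest of the annotation, a level under 5% of the lowest other library was found in knockdown 1 at 28 of 214 loci (13.1%), 26 of them named by band and 2 after a gene. All 6 members were among them, a count that is read here as a description since the members were proposed with results of these libraries known. The summed level of the members was 15055, 26718, 93.4 and 25398 RPM, or 2.91%, 4.64%, 0.0206% and 3.94% of all reads of 25 to 31 nt. The other 94 band loci summed to 200667, 280878, 226332 and 313014 RPM, so in knockdown 1 their sum lay between the wild-type values. Their median level, 344, 598, 75.6 and 659.5 RPM, was lowest in knockdown 1. The 114 gene loci summed to 13147, 11708, 8544 and 16948 RPM and were lowest in knockdown 1.

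**Figure D2:**
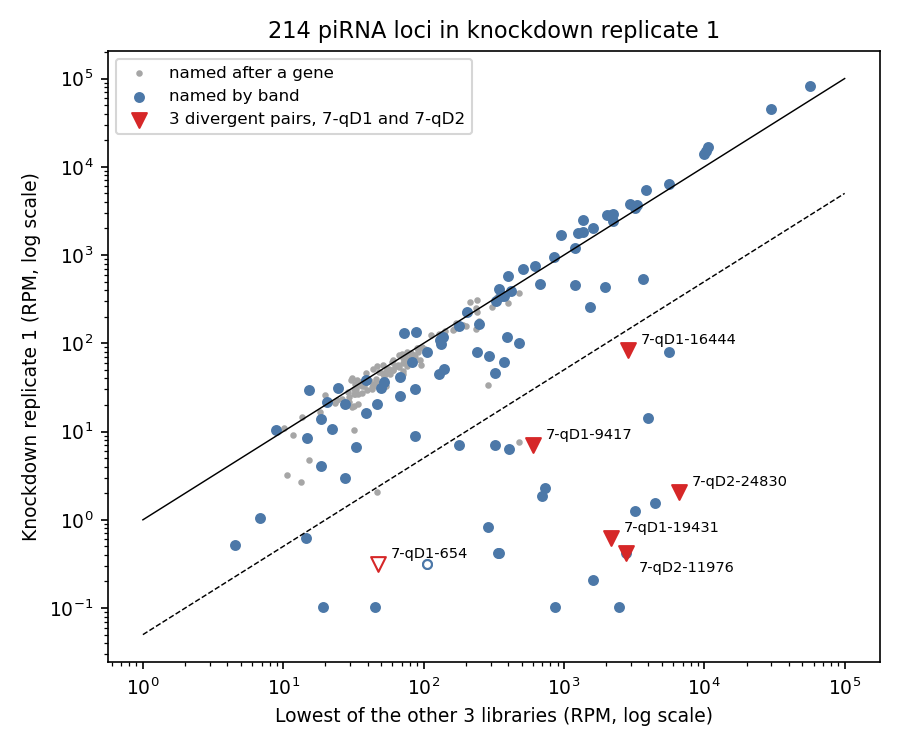
Level in knockdown 1 against the lowest level among the other 3 libraries for all 214 loci, both in RPM on log axes, with triangles for the 6 chromosome 7 loci, a solid line at equal levels and a dashed line at 5%. The 6 triangles lie under 5% of the lowest other library, with 7-qD1-16444 the closest to that limit at 2.92%, and open symbols are loci with 0 reads in knockdown 1 drawn at the 3-count limit of 0.312 RPM.

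The tissue and cell content of knockdown 1 was compared through marker miRNAs. The summed level of 4 spermatocyte miRNAs of the miR-34 and miR-449 family, all detected in every library, was 1096, 1529, 1655 and 1290.1 RPM. The 9 miRNAs of the X-linked testis cluster summed to 39867, 29201, 37425 and 42698 RPM, with each detected in every library. The 4 miRNAs of testis somatic cells summed to 8596, 7540.2, 9371 and 8195 RPM, 3 muscle miRNAs to 320, 240.5, 299.8 and 333 RPM (1 of the 3 at 0 in knockdown 2), 2 blood miRNAs to 5.22, 5.18, 6.13 and 5.23 RPM and the liver miRNA miR-122 to 0.270, 0.108, 0.312 and 0.642 RPM. In RPM, the lists of spermatocytes, somatic cells and blood were highest in knockdown 1. RPM is scaled to all counted reads, and mature miRNA reads made up more of knockdown 1 than of any other library. They numbered 2003321, 1397269, 1953199 and 1853832 of 11117460, 9260452, 9619666 and 10900306 counted reads. These ranks do not hold per mature miRNA read. On that scale each of these lists was highest in wild type 2, and that of somatic cells was lowest in knockdown 1. In whole testis, fewer cells of a type and less RNA per cell cannot be told apart, and the part of cell content in the low members of knockdown 1 was not tested.

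Within a pair, the balance of the arms was similar, though not equal, in wild type 1, wild type 2 and knockdown 2. In the qD2 pair the minus-strand arm 7-qD2-24830 held 70.6% of the pair's reads in wild type 1, 70.7% in wild type 2 and 72.4% in knockdown 2. Knockdown 1 had 24 reads of this pair and a share of 83.3% (95% Wilson interval 64.1% to 93.3%), which includes the other values. This share counts the 7 antisense reads of 7-qD2-24830. In the third pair 7-qD1-654 held 2.15%, 2.15% and 2.09% in the same 3 libraries, and 0 of 6 reads in knockdown 1. The pair of 7-qD1-9417 and 7-qD1-16444 was the exception. Its minus-strand arm held 17.5%, 19.7% and 21.2% in wild type 1, wild type 2 and knockdown 2 and 7.72% in knockdown 1 (6.12% to 9.69%), below the intervals of the other libraries.

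Per length, the wild-type mean level ran from 211 ± 77.8 RPM per kb at 7-qD2-24830 through 167 ± 61.3 at 7-qD2-11976, 78.4 ± 37.1 at 7-qD1-19431, 69.7 ± 27.3 at 7-qD1-16444 and 26.0 ± 12.7 at 7-qD1-9417 to 9.59 ± 4.54 at 7-qD1-654 (SD, n = 2 each). Each member was higher in wild type 2 than in wild type 1, so these SDs do not measure differences between loci within a library. Locus 7-qD2-24830 stood above 7-qD2-11976 in both, at 156 and 124 RPM per kb in wild type 1 and 266 and 210 in wild type 2. Locus 7-qD1-19431 likewise stood above 7-qD1-16444, at 52.2 and 50.4 in wild type 1 and 104.7 and 89.0 in wild type 2. Knockdown 2 had the same order. In knockdown 1 the order was another one, with 7-qD1-16444 first at 1.47 RPM per kb and 7-qD1-9417 second at 0.197. All these values divide by the whole deposited interval, which includes stretches with few reads. In wild type 1, 90% of the sense reads began within 20.9 kb of the start at 7-qD1-16444 and 34.5 kb at 7-qD1-19431. The distances were 8.79 kb at 7-qD2-11976 and 30.2 kb at 7-qD2-24830. The order therefore depends on the interval and does not rank the stretches that hold most reads.

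The region between the starts of each pair, taken as 300 bases of GRCm39 around the midpoint and read on the plus strand, is shown because both arms start in it. The capitals mark AACNG and its reverse complement CNGTT, the core of the sites that MYB proteins bind, where N is any base; some matches adjoin or overlap.
qD2 pair, chr7:73466131-73466430: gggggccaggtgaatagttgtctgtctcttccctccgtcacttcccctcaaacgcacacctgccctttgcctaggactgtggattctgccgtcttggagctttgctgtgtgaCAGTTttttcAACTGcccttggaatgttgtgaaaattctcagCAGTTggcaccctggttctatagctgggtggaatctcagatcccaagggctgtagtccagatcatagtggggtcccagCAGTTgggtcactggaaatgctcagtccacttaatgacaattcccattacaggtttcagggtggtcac
9417 and 16444 pair, chr7:69559272-69559571: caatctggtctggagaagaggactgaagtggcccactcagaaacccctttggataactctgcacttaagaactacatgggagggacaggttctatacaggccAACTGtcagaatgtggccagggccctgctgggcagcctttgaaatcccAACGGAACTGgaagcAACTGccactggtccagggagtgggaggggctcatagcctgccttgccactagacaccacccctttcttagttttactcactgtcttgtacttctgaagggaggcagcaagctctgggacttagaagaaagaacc
654 and 19431 pair, chr7:72754891-72755190: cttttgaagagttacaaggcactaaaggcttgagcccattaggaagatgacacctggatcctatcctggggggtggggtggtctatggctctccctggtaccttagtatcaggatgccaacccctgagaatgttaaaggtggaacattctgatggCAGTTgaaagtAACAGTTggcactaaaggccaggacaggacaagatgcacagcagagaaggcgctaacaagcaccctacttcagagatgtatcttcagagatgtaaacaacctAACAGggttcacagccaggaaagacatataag

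Each window held 4 matches to this motif, counted on both strands. Of 32817 promoter windows of 300 bases in RefSeq (GRCm38.p6), 11.8% held 4 or more and 80.3% held at least 1, so the number is not rare. The windows had 51.3%, 52.7% and 47.7% G and C. A match is a run of letters, and no binding was measured here.

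At 7-qD1-16444, the reads left in knockdown 1 lay much where those of the other libraries lay. Positions are of all sense reads with 1 place in the interval, those named after a repeat included. For 7-qD1-16444 the median read began 5.87 kb from the start of the locus in wild type 1, 5.87 kb in wild type 2, 5.80 kb in knockdown 1 and 6.91 kb in knockdown 2. The share within the first 4 kb was 37.3%, 37.2%, 36.9% and 31.2%. Across 57 bins of 1 kb, which share their sequence and mappability between libraries, Pearson's r with wild type 2 was 0.998 for wild type 1, 0.973 for knockdown 1 and 0.980 for knockdown 2. Its partner 7-qD1-9417 had r = 0.778 between knockdown 1 and wild type 2 over 36 bins, with 72 reads behind the knockdown 1 profile. For 7-qD2-24830, whose reads spread over all 43 bins, r with wild type 2 was 0.992 for wild type 1 and 0.315 for knockdown 1. The knockdown 1 values were 0.489 at 7-qD2-11976 and 0.046 at 7-qD1-19431. They rest on 14, 4 and 7 reads at these 3 loci, too few to show a profile.

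**Figure D3:**
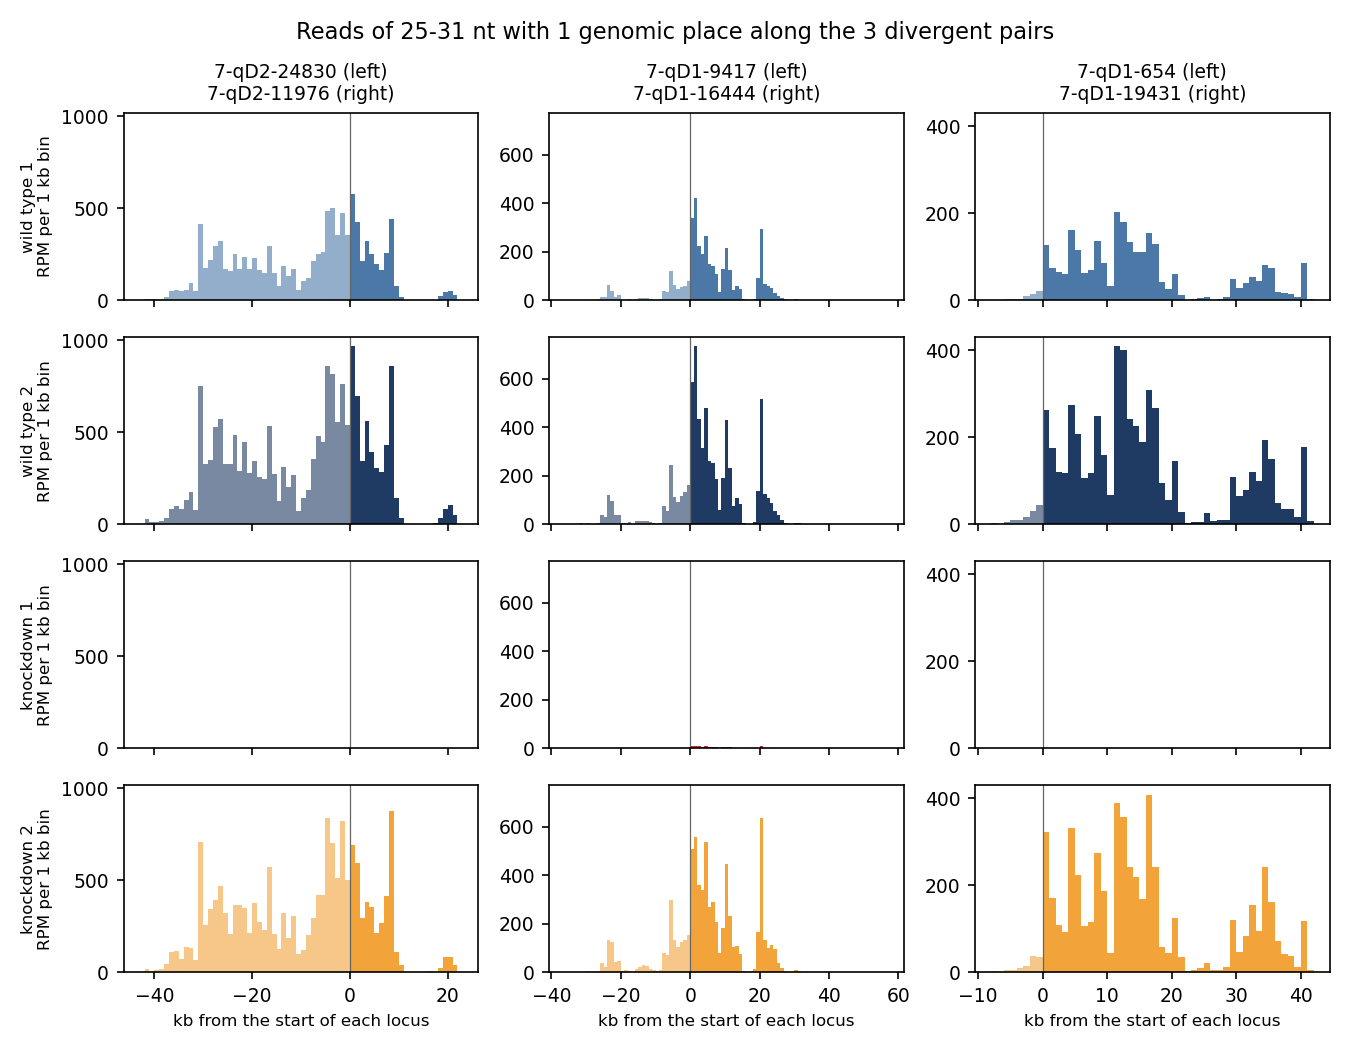
Sense reads of 25 to 31 nt with 1 place along the 3 pairs in bins of 1 kb, in RPM, by distance from the start of each arm, with the minus-strand arm drawn to the left. Wild type 1, wild type 2 and knockdown 2 follow the same peaks, and knockdown 1 is close to the baseline on this shared axis, 7-qD1-16444 included.

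**Figure D4:**
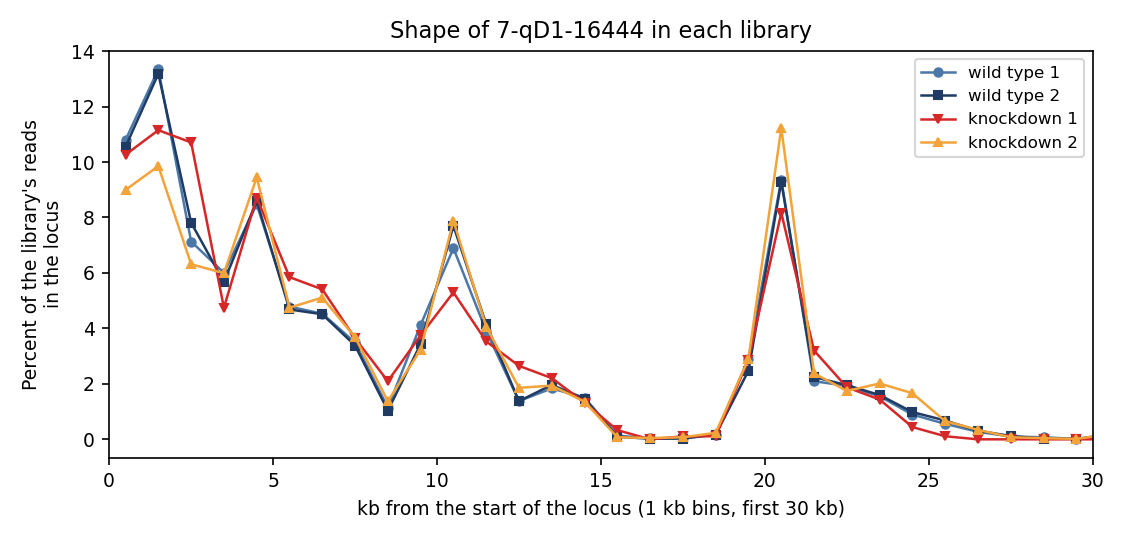
Share of the sense reads in the interval of 7-qD1-16444 in each bin of 1 kb, in percent of the library's own reads there, by distance from its start. On this scale, which sets the level aside, the 906 reads of knockdown 1 follow the peaks of the other 3 libraries, with r = 0.973 with wild type 2.

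Reads were shorter in knockdown 1 at the 2 loci with at least 50 reads there. The length ratio is the number of reads of 29 to 31 nt over that of 25 to 28 nt. At 7-qD1-16444 it was 0.747, 0.641, 0.269 and 0.820, and at 7-qD1-9417 it was 1.59, 1.30, 0.396 and 1.52. Knockdown 1 was the lowest library at both. The wild-type and knockdown means were 0.694 ± 0.075 and 0.545 ± 0.389 at 7-qD1-16444 (exact permutation p = 1, n = 2 each) and 1.44 ± 0.21 and 0.959 ± 0.796 at 7-qD1-9417 (exact permutation p = 0.667, n = 2 each). Neither ratio differed between genotypes beyond the spread between libraries.

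The rest of knockdown 1 had shorter reads too. Over all reads of 25 to 31 nt in the libraries the ratio was 0.492, 0.466, 0.223 and 0.602. Among the other band loci with at least 50 reads in each library, 74 of 75 had their lowest ratio in knockdown 1, with medians of 0.650, 0.612, 0.181 and 0.715. At the loci named after a gene the count was 95 of 110. The ratio of 7-qD1-16444 in knockdown 1 lay above the upper quartile of those 75 loci, 0.243, although in wild type 1 it lay between their median and their upper quartile of 0.974.

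**Figure D5:**
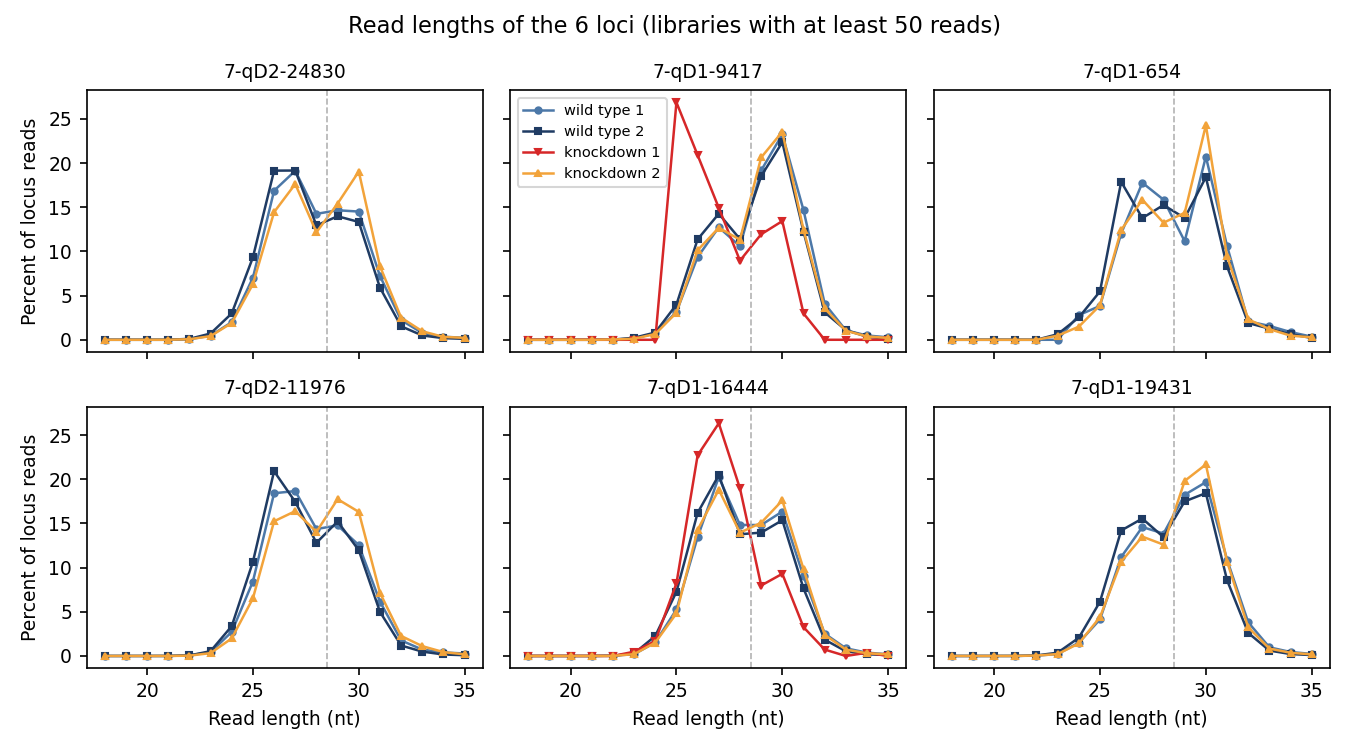
Share of the reads of each locus at each read length, in percent of its reads of 18 to 35 nt, with 1 line for each library that has at least 50 reads of the locus. Locus 7-qD1-16444 peaks at 27 nt in all 4 libraries, 7-qD1-9417 at 30 nt in the libraries other than knockdown 1 and at 25 nt there, and knockdown 2 has its peak at 30 nt for 7-qD2-24830 and 29 nt for 7-qD2-11976.

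Among the members the length ratio ordered the loci in a similar way in wild type 1, wild type 2 and knockdown 2. In wild type 1 the ratio was 0.559 at 7-qD2-11976, 0.635 at 7-qD2-24830, 0.747 at 7-qD1-16444, 0.859 at 7-qD1-654, 1.12 at 7-qD1-19431 and 1.59 at 7-qD1-9417. Wild type 2 kept this order, with 0.521, 0.548, 0.641, 0.773, 0.902 and 1.30. In knockdown 2 the values were 0.789, 0.846, 0.820, 1.06, 1.27 and 1.52, with 7-qD2-24830 and 7-qD1-16444 exchanged. The arms of the qD2 pair were thus close to each other in length, and those of the 7-qD1-9417 and 7-qD1-16444 pair were further apart: 7-qD1-9417 had the highest ratio of the 6 loci in each of these 3 libraries, and its partner 7-qD1-16444 a peak at 27 nt. Most abundant lengths were 30 nt for 7-qD1-9417, 7-qD1-654 and 7-qD1-19431 in wild type 1, wild type 2 and knockdown 2.

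Reads of knockdown 1 were also shorter when only shared 5′ ends were compared. At 7-qD1-16444, 313 5′ ends were found in all 4 libraries, and the mean length of the reads that began there was 27.96, 27.76, 27.40 and 27.91 nt, with 724 reads behind the value of knockdown 1. At 7-qD1-9417, 42 shared ends gave 28.54, 28.06, 27.02 and 28.42 nt, with 57 reads in knockdown 1. Over all 5′ ends the means were 28.12, 27.92, 27.38 and 28.19 nt at 7-qD1-16444 and 28.74, 28.54, 27.10 and 28.67 nt at 7-qD1-9417. Knockdown 1 lay further below the other libraries there. Reads were pooled over the shared ends without matching the reads per end between libraries. How much of the shortening the shared ends hold was therefore not tested. The sequences printed above show a case with a shared 5′ end. Sequence b of 7-qD1-16444 (27 nt) had 486, 749, 13 and 940 reads. Its longer form c (29 nt) had 428, 404, 2 and 812 reads.

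The first base was mostly U in every library with reads. Knockdown 1 had the lowest share at 7-qD1-16444 and the highest at 7-qD1-9417. Its interval lay below the other values at 7-qD1-16444 and included them at 7-qD1-9417, and these intervals cover counting error only. At 7-qD1-16444, U was first in 90.6%, 90.4%, 88.3% (95% Wilson interval 85.9% to 90.3%) and 92.3% of reads, with no difference between genotypes (exact permutation p = 1, n = 2 each). At 7-qD1-9417 it was 89.5%, 88.2%, 94.0% (85.6% to 97.7%) and 90.2%, both knockdown values above both wild-type values (exact permutation p = 0.333, n = 2 each, the smallest the test allows). With each distinct sequence counted once, this separation of the groups was lost. The 7-qD2-24830 values were 88.7%, 88.9%, 18 of 20 reads and 89.5%. In the other band loci the median share was 90.35%, 89.98%, 90.73% and 91.51%. The weakest member, 7-qD1-654, had lower shares of 84.5%, 77.1% and 85.1% in the libraries with reads. Its reads were few, at 528, 883 and 1009.

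The ping-pong cycle, in which PIWI proteins cut transcripts of both strands in turn, leaves A at base 10 of its products. At 7-qD1-16444 base 10 was A in 25.2%, 25.7%, 22.8% and 24.99% of reads.

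The sequences that remained in knockdown 1 were mostly ones that the other libraries hold. Of the 460 distinct sequences of 7-qD1-16444 there, 46 were in no other library and 319 were in all 4. For 7-qD1-9417, 11 of 50 were in no other library and 26 were in all 4. Of the 17 distinct sequences of 7-qD2-24830, 4 were in no other library, with 7 of its 20 reads, and 12 were in all 4. The 4 sequences of 7-qD2-11976 and the 6 of 7-qD1-19431 were each found in another library. By abundance, 67 of the 100 most abundant sequences of 7-qD1-16444 were present in knockdown 1, beside 6 of 100 at 7-qD1-9417, 3 of 100 at 7-qD2-24830 and 0 of 100 at each of 7-qD2-11976, 7-qD1-654 and 7-qD1-19431. With so few reads of a locus left, the absence of a single sequence cannot be told apart from the low level of its locus.

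Sequence a of 7-qD1-16444 had 406 reads in wild type 1, 789 in wild type 2, 12 in knockdown 1 and 1153 in knockdown 2. Sequence a of 7-qD2-11976 had 902, 1805, 0 and 1782 reads, and sequence a of 7-qD2-24830 had 352, 574, 0 and 1988. Sequence a of each qD2 locus thus had no read in knockdown 1, while that of 7-qD1-16444 was present at a lower count. Knockdown 1 held 20 and 4 reads of the qD2 loci beside 801 of 7-qD1-16444. These counts therefore do not show that the loci differed in which sequences remained. A single piRNA did not always follow its locus: 7-qD2-11976 b had 898, 1159, 0 and 543 reads and was lower in knockdown 2 than in either wild-type library, and 7-qD1-9417 a had 150, 211, 0 and 115.

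Sequences were well shared between the libraries with reads. Of the wild type 1 reads, 89.8% at 7-qD2-24830, 91.2% at 7-qD2-11976, 87.9% at 7-qD1-16444, 82.7% at 7-qD1-19431, 74.7% at 7-qD1-9417 and 52.1% at 7-qD1-654 were of a sequence also read in wild type 2. The order follows the levels in part, and the 2 weakest loci had the lowest shares.

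Of the 20 reads of 7-qD2-24830 in knockdown 1, 13 were sense and 7 lay on the opposite strand. All 7 fell in exons of Fam174b, a protein-coding gene on the plus strand whose transcript reaches into the far end of the locus, in parts annotated as UTR. Reads there were 21, 21, 7 and 19, or 1.89, 2.27, 0.728 (0.293 to 1.499, exact Clopper-Pearson) and 1.74 RPM. All antisense reads of the locus were 373, 570, 7 and 454. In knockdown 1 the reads of this other transcript therefore make up 7 of the 20, and the sense level is lower than the level of the locus as counted.

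Some reads inside the intervals are named by the authors after a repeat class and are not counted in the locus. In 7-qD1-16444, sense reads of 1 place named as LTR, LINE or SINE numbered 3479, 5322, 105 and 6299. They were 9.94%, 10.3%, 11.6% and 10.2% of all sense reads in the interval, so in knockdown 1 they were as scarce as the reads counted in the locus. The other intervals repeated the pattern of their loci: 12115, 18063, 1 and 20142 such reads in 7-qD2-24830 and 4534, 7813, 1 and 10700 in 7-qD1-19431. Reads named after the LTR element RMER17A2 alone, in 7-qD1-16444, numbered 2161, 3132, 63 and 4313.

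Within 7-qD2-11976 lies the annotated miRNA hairpin mmu-mir-7234. Its reads were of piRNA length, with 250, 428, 0 and 470 reads of 25 to 31 nt and 2, 3, 0 and 8 of 18 to 24 nt. U was first in 97.6%, 97.4% and 98.5% of the longer reads in the libraries that had them. The leading sequence, shown because its length is not that of a miRNA, had 117, 173, 0 and 201 reads, and its first base is in capitals.
mmu-mir-7234 region, chr7:73469360-73469386, plus strand: Taggtagaaacgtctttctagggtaga

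Loci elsewhere with the profile most like that of 7-qD2-24830 over the 4 libraries were 5-qF-14224, 5-qF-14508, 9-qA5.3-24188, 4-qC5-17839 and 12-qE-23911, at Euclidean distances of 0.224, 0.284, 0.797, 0.823 and 1.01 between centred log2(RPM + 0.1) profiles. The same 5 loci were the nearest to 7-qD1-19431, at 0.482 to 0.810. For 7-qD1-16444 the nearest were others, led by 18-qE1-1295 at 0.398 and 10-qC1-1527 at 0.431. The distance between 7-qD2-24830 and 7-qD1-19431 themselves was 0.290, and that between the 2 arms of the qD2 pair 0.675.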

How the data were processed

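Small RNA inserts of 18 to 40 bases were sequenced per the labels' protocols, and the submitters' processing notes name cutadapt and the build mm39. The authors deposited 1 table of raw read counts per distinct sequence and library, with the name, class and sequence length of each match, and a scaling ratio per library that equals 1000000 over its mature miRNA reads; no source used here gives the aligner or its settings. The table has 12700077 lines and gives a sequence with several matches on several lines. Each sequence was therefore counted once per library and given 1 name over all libraries (its most read one), which left the counts of the 6 loci as deposited. Names of libraries in the table were mapped to the labels by group and number.

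Reads of 25 to 31 nt were summed per locus. Library totals were 11117460, 9260452, 9619666 and 10900306 reads, of which 5745703, 5326809, 4352106 and 7025053 had this length. Locus counts were tested with edgeR 4.0.16 (quasi-likelihood, TMM factors, loci with at least 1 CPM in 2 libraries; SE from the F statistic), and with DESeq2 1.42.0 as an alternative. The TMM factors were 1.12, 1.15, 0.658 and 1.18. Levels (log2(RPM + 0.1)), length ratios and first-base shares were compared with exact permutation tests over the 6 assignments, in loci with at least 50 reads in each library for the latter measures. P-values measure the spread between these libraries. Sequences were placed in GRCm39 by exact match. The fits were tested on simulated data. Replicates were not copies: their counts over loci differed beyond sampling noise (chi-square per degree of freedom 537 within wild type and 4388 within knockdown).

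All 6 loci are named, with their 3 sequences of highest mean level and those read in libraries under 50 reads as candidates for print. The members, lists and tests were chosen with earlier results of these data known. Alternatives were other library sizes, no filter, deposited names, 24 to 32 nt, reads with 1 place, each sequence once, each library left out and the replicate number as a block.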

Additional observations from a re-analysis of the deposited data

How the results depend on the processing

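Without knockdown 2, the number of loci called was 63 (23 higher, 40 lower); without any other single library it was 0. Leaving out each library in turn, the fitted log2 difference ran from -11.04 to -0.39 at 7-qD2-24830, -12.07 to -0.51 at 7-qD2-11976, -5.99 to 0.00022 at 7-qD1-9417, -4.53 to -0.23 at 7-qD1-16444, -12.16 to -0.21 at 7-qD1-654 and -11.28 to -0.17 at 7-qD1-19431. The difference in mean log2(RPM + 0.1) ran from -11.96 to 0.27, -12.77 to 0.15, -6.93 to 0.68, -5.51 to 0.44, -9.40 to 0.46 and -12.05 to 0.50 at the same loci, and the values above 0 are those without knockdown 1. The length ratio difference ran from -1.05 to 0.078 at 7-qD1-9417 and -0.42 to 0.13 at 7-qD1-16444, and that of the U share from 1.37 to 5.17 and -2.21 to 1.85 percentage points. With each distinct sequence counted once, the U share difference of 7-qD1-16444 was 3.79 percentage points in place of -0.18; the cause was not tested.

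Same-numbered libraries deviated together over the loci (correlation 0.493), but the labels give no shared litter or day and there are 2 pairs, so they share only a number. With the replicate number as a block the fitted differences were -5.56, -6.03, -2.86, -2.27, -3.09 and -5.49, each with an adjusted p of 0.95, and 0 loci were called. Under the 9 alternatives that kept all libraries, 54 of 54 fitted values kept their direction, with adjusted p of 0.95 to 0.9997. So did 30 of 30 levels under 5 alternatives and, under 4, 8 of 8 length ratios and 7 of 8 U shares. The few reads left of a locus limit what can be said of single sequences in knockdown 1, where 4 of the 6 loci had 20 reads or fewer.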
